A study of Oncorhynchus mykiss with 18 samples.

Results

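The miRNAs described here carry the names of families that respond to low oxygen or cellular stress in other animals, namely miR-21, miR-29, miR-34 and miR-210. The families were chosen with earlier results of these data known, and their rows were then taken by name. Of the 4884 rows of the count table, 8 carried such a name: 2 rows of miR-21, 5 rows of miR-29 and 1 row of miR-210. No row of the table analysed here carried a miR-34 name, and miR-34 was not analysed here. The names are those of Atlantic salmon (the prefix ssa), which the authors used to annotate rainbow trout reads, and 212 rows of the table had such a name. The other 4672 rows were named by a genomic location.

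A miRNA is a short RNA that pairs with messenger RNAs, mainly through the seed at bases 2 to 8 of its mature strand, and lowers their translation or stability. In mammals miR-210 is a direct target of hypoxia-inducible factor and is the miRNA most closely tied to low oxygen, miR-21 is abundant in many cell types and is raised in inflammation and injury, and miR-29 represses collagens and other matrix genes. The miR-34 family is transcribed under the control of p53 in mammals. A miRNA hairpin has a 5p and a 3p arm, and either arm can become the mature strand. Among the members only ssa-miR-29a-3p was named 3p, and miR-210 was listed as 5p alone. The roles above are given for the families and not for the arm listed here.

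The libraries were small RNA libraries of rainbow trout (Oncorhynchus mykiss) blood plasma, epidermal mucus and the water of the holding tank, 18 in all, made up of 3 controls and 3 stressed samples from each source. Stressed samples were taken 1 h after fish had been held in air for 3 min, and control samples were taken before air exposure. All fish had the same feed and well-aerated water, the labels name no strain, and age and sex are not given in the sources used here. The paper names an aquaculture supplier and a provincial ministry as sources of the fish, and does not say which samples came from which. Plasma and mucus of a given number and treatment came from the same fish. The stressed fish of a tank were not its control fish, whereas its water was sampled both before and after. Mucus was scraped from the left side, water was passed through a filter, and each sample type was extracted with its own kit, so that sample type and extraction cannot be told apart.

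Of member sequences, the files used here held reads with the miR-21 seed, AGCTTAT, in the lists of frequent trimmed reads, where a search for that seed at bases 2 to 8 found 2 distinct reads. They are shown because the miR-21 rows carried nearly all counts of these families, with the seed in capitals and written 5′ to 3′.
read of 22 bases: tAGCTTATcagactggtgttgg
read of 23 bases: tAGCTTATcagactggtgttggc
Both reads have the same first 22 bases, and the longer read adds a single c at the 3′ end. The lists do not say which of the reads was counted as ssa-miR-21a-5p or ssa-miR-21b-5p.

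Depth differed between the groups. The total count of the 212 known miRNAs ranged from 3815302 to 12858162 in plasma, from 415594 to 1728386 in mucus, from 315428 to 591733 in control water and from 3061303 to 4792838 in stressed water. Known miRNAs made up 47.5%, 80.5% and 21.1% of all counts in mucus controls 1 to 3 and 3.63%, 12.2% and 91.2% in mucus stressed 1 to 3. In plasma they made up 73.5% to 97.2% and in water 62.0% to 91.0%, so mucus libraries were the least alike in this respect. Sample types followed their labels on marker miRNAs. The epithelium and skin list (miR-200, miR-141, miR-429, miR-203 and miR-205, of which 4 numbers were listed) summed to between 71912 and 183929 per 1000000 known counts in mucus and water and to between 620 and 11904 in plasma. The leukocyte list (miR-142, miR-150 and miR-223, of which 2 numbers were listed) summed to at least 3975 on this scale in plasma and to at most 868 in mucus and water. Muscle miRNAs (miR-1, miR-133 and miR-206) were at 0 in every mucus and water library. Mucus controls 1 and 2 stood apart from the other mucus libraries on other lists. Mucus control 1 had miR-126, a miRNA of endothelium and thrombocytes, at 1982 on this scale against 10.8 to 117 in the other 5, miR-122, a liver miRNA, at 668 against 0 to 5.40, the erythrocyte list (miR-144 and miR-451, of which 1 was listed) at 418 against 4.38 to 85.1, and the lowest epithelium and skin sum. Mucus control 2 had the leukocyte list at 868 against 0 to 73.9 in the other 5.

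miR-21 made up most of the signal. Its 2 rows held between 99.27% and 99.99% of the counts of all members in each library. Of the known miRNA counts, plasma had 3.08% to 6.56% in both rows together, mucus 2.25% to 7.68% and water 11.1% to 19.2%. By mean share among the 212 known rows, ssa-miR-21b-5p ranked 2 in water, 5 in mucus and 8 in plasma. In the same order ssa-miR-21a-5p ranked 3, 8 and 10. The other members lay far lower, and in water ssa-miR-29b-2-5p ranked 90 and ssa-miR-210-5p ranked 106. Rows with identical counts were each ranked and each added to the total of known counts. Of 24 named miRNAs with a 5p and a 3p row, 9 had identical counts in both rows in all 18 libraries. All shares of known counts and levels scaled to known counts use this total. Neither the ranks nor this total were recalculated with such rows counted once.

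In plasma, ssa-miR-21a-5p had 133063, 156349 and 105200 counts in control libraries 1 to 3 and 92979, 165639 and 110956 in stressed libraries 1 to 3. Scaled within plasma by the trimmed mean of M values (TMM, which sets library sizes so that most rows do not differ), this was 17394 ± 3363 CPM (counts per 1000000 counts of the scaled library; SD, n = 3) in controls and 16884 ± 1740 (SD, n = 3) after stress. The groups overlapped and the log2 fold change was -0.043 (SE 0.29, edgeR quasi-likelihood test with Benjamini-Hochberg adjustment, adjusted p = 0.993). ssa-miR-21b-5p had 201500, 253925 and 170183 counts in plasma controls and 137119, 230114 and 158256 in stressed plasma. Its log2 fold change of -0.19 (SE 0.27, edgeR adjusted p = 0.993) was also smaller than its error.

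In mucus, ssa-miR-21a-5p had 26932, 38842 and 14007 counts in controls and 22653, 8600 and 48058 in stressed libraries, or 10840 ± 1607 CPM (SD, n = 3) against 14475 ± 3329 (SD, n = 3) when scaled within mucus. The groups overlapped, with a log2 fold change of 0.42 (SE 0.52, edgeR adjusted p = 0.930). ssa-miR-21b-5p had 25791, 0 and 21141 counts in mucus controls and 38719, 13963 and 74481 in stressed mucus. The 0 of mucus control 2 stood beside 38842 counts of ssa-miR-21a-5p in the same library, and the log2 fold change of 1.30 had a wide error (SE 2.51, edgeR adjusted p = 0.991). Of the known miRNAs, 2 were at 0 in 1 mucus library and at 1000 counts or more in each of the other 5, and ssa-miR-21b-5p was the only one whose 0 was in mucus control 2. Without mucus control 2 the log2 fold changes were -0.20 for ssa-miR-21a-5p and 0.23 for ssa-miR-21b-5p, without mucus control 1 they were 0.25 and 1.07, and no member was called either way. With both rows summed, miR-21 gave a log2 fold change of 0.67 (SE 0.66, edgeR adjusted p = 0.894) in mucus.

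In water the counts were higher after stress, as was the depth, and the scaled levels overlapped. ssa-miR-21a-5p had 39020, 24546 and 16512 counts in control tanks 1 to 3 and 251512, 268814 and 237543 in the same tanks after stress. The scaled levels were 50198 ± 14747 CPM (SD, n = 3) and 56165 ± 14197 CPM (SD, n = 3), with a log2 fold change of 0.18 (SE 0.25, edgeR with tank as a block, adjusted p = 0.720). ssa-miR-21b-5p went from 52666, 34075 and 24949 counts to 323329, 317953 and 293421, and its log2 fold change was -0.018 (SE 0.21, edgeR adjusted p = 0.949). Both stood within the spread of the tanks, and the median log2 fold change over all 165 rows tested in water was 0.39.

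**Figure D1:**
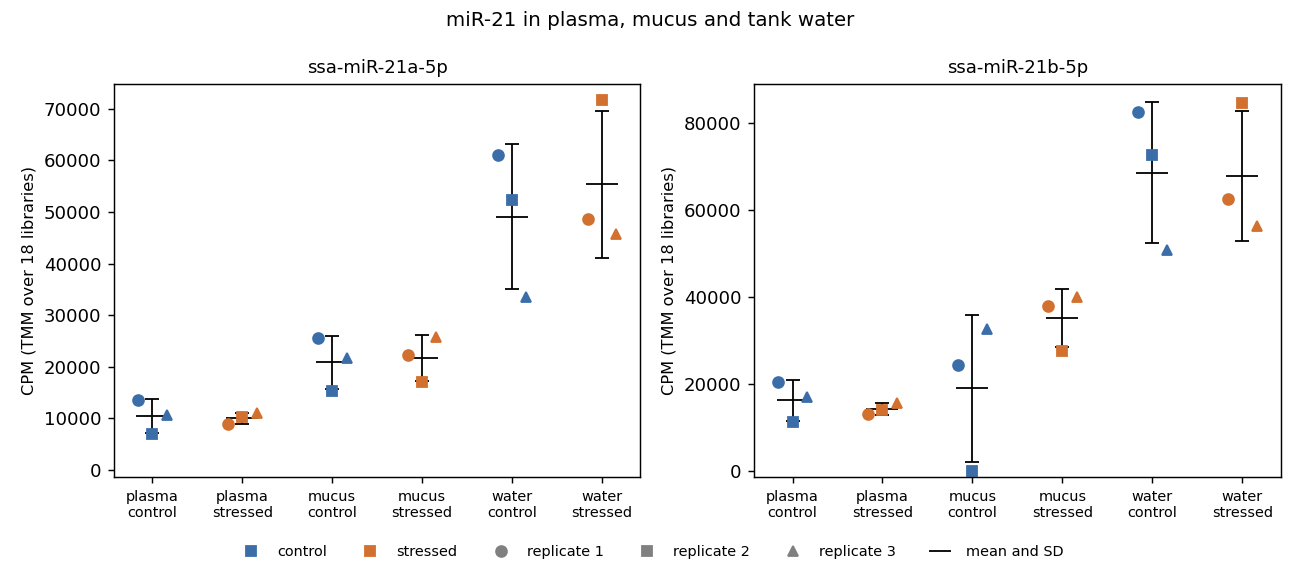
Levels of ssa-miR-21a-5p (left) and ssa-miR-21b-5p (right) in CPM, scaled by TMM over all 18 libraries, for the 6 groups on the x axis; points are libraries, with the replicate number as the marker, and the bar shows the mean and SD (n = 3). All 6 water libraries lie above all plasma and mucus libraries, control and stressed libraries overlap in each sample type, and ssa-miR-21b-5p is at 0 in mucus control 2.

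The split of miR-21 counts between the rows was examined after the values had been seen and is given as a description only. ssa-miR-21b-5p held 60.2%, 61.9% and 61.8% of miR-21 counts in plasma controls and 59.6%, 58.1% and 58.8% in stressed plasma. In water it held 57.4%, 58.1% and 60.2% in control tanks 1 to 3 and 56.2%, 54.2% and 55.3% after stress. The share was lower in stressed than in control libraries in plasma and in water, with no overlap between the groups and mean differences of -2.47 and -3.35 percentage points. The exact permutation p was 0.1 in plasma and 0.25 over pairs in water, each the smallest possible, so these tests could not pass 0.05. How often such splits separate in other families was not tested. In mucus it was 48.9%, 0% and 60.1% in controls and 63.1%, 61.9% and 60.8% after stress, so that it was higher in stressed mucus, again with no overlap. The gap was narrow, between 60.1% in control 3 and 60.8% in stressed 3, and the exact permutation p was 0.1, the smallest possible. The 95% Wilson interval of water control 3, the widest in plasma or water, ran from 59.7% to 60.6% and covers counting error only. The mature sequences behind the rows were not at hand, and reads that match both could have been counted in either, so what each row counts is uncertain.

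**Figure D2:**
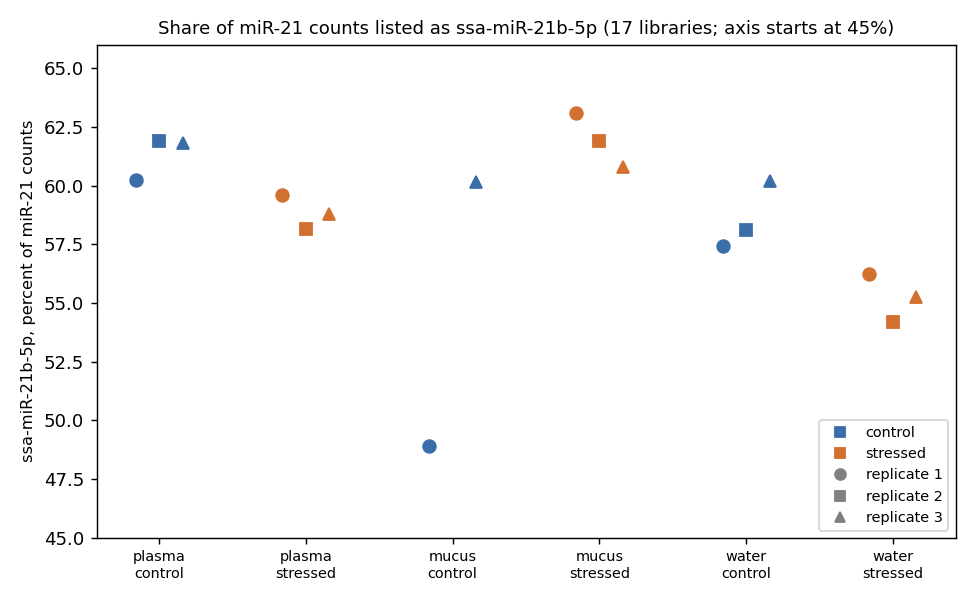
Percent of miR-21 counts listed as ssa-miR-21b-5p in 17 libraries, by group; points are libraries, the marker gives the replicate number, mucus control 2 (0%) is left out, and the y axis starts at 45%. Stressed libraries lie below control libraries in plasma and in water, and mucus control 1 lies apart at 48.9%.

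miR-29 was represented by rows at 3 levels. ssa-miR-29b-2-5p was present in 17 of 18 libraries, ssa-miR-29a-3p and ssa-miR-29a-5p in few, and ssa-miR-29b-3-5p and ssa-miR-29c-5p in plasma controls alone. In plasma, ssa-miR-29b-2-5p had 857, 680 and 470 counts in controls and 560, 778 and 614 in stressed libraries. This gave 91.0 ± 39.3 CPM (SD, n = 3) in controls and 91.0 ± 9.32 (SD, n = 3) after stress, with a log2 fold change of -0.00084 (SE 0.66, edgeR adjusted p = 0.999). In mucus it had 0, 239 and 49 counts in controls and 42, 37 and 63 in stressed libraries, and the log2 fold change was -0.076 (SE 1.76, edgeR adjusted p = 0.994). The highest mucus value was that of mucus control 2, and the 0 was in mucus control 1. Mucus control 2 had the high leukocyte list, but also the most known counts (1728386) and the highest epithelium and skin sum in mucus. The part of these in its value was not tested. Without mucus control 2 the log2 fold change was 0.32 and without mucus control 1 it was -0.76.

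In water, ssa-miR-29b-2-5p had 66, 36 and 60 counts in control tanks and 422, 264 and 388 after stress. The scaled level was between 77.9 and 124 CPM in control tanks and between 71.1 and 83.8 CPM after stress. It was lower after stress in each of the 3 tanks, the groups overlapped, and the log2 fold change of -0.40 (SE 0.26, edgeR adjusted p = 0.447) did not pass the test.

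ssa-miR-29a-5p was listed in water only after stress. It had 0 counts in the 3 control tanks and 55, 29 and 27 counts in the same tanks after stress, or 7.99 ± 2.84 CPM (SD, n = 3). Against a limit of 3 counts over the control group, or 1.92 CPM, the stressed level was at least 4.16-fold higher. In single control libraries, 3 counts amount to 5.07, 7.47 and 9.51 per 1000000 known counts in control tanks 1 to 3, and the stressed tanks had 11.9, 9.47 and 5.63 on the same scale. The stressed level was above the limit of its own control library in tanks 1 and 2 and below it in tank 3, where such a level was not detectable. When every library was thinned to 315428 known counts, the total of the shallowest library, the miRNA was still found in 3 of 3 stressed tanks. The thinning was a single random draw, and a count of at least 1 was taken as found. That is below the limit of 3 counts, so the draw does not show a level above that limit at this depth. The edgeR quasi-likelihood test with tank as a block gave an adjusted p of 0.447, and DESeq2 gave 0.717. The study used a generalized linear model with the block, which was run here as edgeR's likelihood ratio test. This test gave an adjusted p of 0.0417 and the quasi-likelihood test without the replicate block 0.0519, and both made the call. Over all alternatives the adjusted p ranged from 0.0417 to 0.780. The study picked this miRNA from these libraries, so its direction here is not independent evidence.

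The same row was also found in plasma, with 0, 0 and 45 counts in controls and 0, 94 and 28 in stressed libraries, and was at 0 in all 6 mucus libraries. In mucus, 3 counts amount to between 1.74 and 7.22 per 1000000 known counts, while the plasma libraries that held the miRNA had 5.22 to 7.31 on this scale, so a similar level would not have been detectable in the shallowest mucus libraries. The plasma groups overlapped, with a log2 fold change of 1.05 (SE 2.79, edgeR adjusted p = 0.993). The difference between the stress responses of plasma and water was itself tested and did not pass (edgeR adjusted p = 0.967).

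ssa-miR-29a-3p was found in plasma only. It had 0, 249 and 61 counts in plasma controls, 117, 136 and 38 in stressed plasma and 0 in all mucus and water libraries. Scaled to known counts, the level of plasma stressed 3 was below the limit of 3 counts in water controls 2 and 3 and mucus stressed 2. Such a level was not detectable there. The plasma groups overlapped, with a log2 fold change of 0.26 (SE 1.87, edgeR adjusted p = 0.993). ssa-miR-29b-3-5p had 400 counts in plasma control 2 and 0 elsewhere. ssa-miR-29c-5p had 400 counts in plasma control 2, 32 in plasma control 3 and 0 elsewhere. These rows did not pass the filter on low counts in the main fits, and neither was called under an alternative in which it was tested.

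ssa-miR-210-5p, from the hairpin tied to hypoxia, had like levels in control and stressed plasma and a lower scaled level in stressed than in control water, short of the threshold. In plasma it had 276, 878 and 332 counts in controls and 383, 512 and 386 in stressed libraries, or 59.3 ± 20.1 CPM against 59.7 ± 4.87 (SD, n = 3 each). The log2 fold change was 0.0097 (SE 0.69, edgeR adjusted p = 0.997). In mucus it had 5, 48 and 0 counts in controls and 10, 0 and 18 after stress, and did not pass the filter. It was again highest in mucus control 2, whose leukocyte list stood apart and which had the most known counts in mucus. The part of either in this value was not tested. In water the counts were 31, 16 and 18 in control tanks and 115, 76 and 94 after stress. Scaled to depth, this was 40.7 ± 8.36 CPM (SD, n = 3) in controls against 20.5 ± 2.29 (SD, n = 3) after stress, with every stressed library below every control library. The sum of the leukocyte list was also lower in stressed water without overlap, at 337 to 370 per 1000000 known counts against 470 to 663 in controls. Its rows tested in water went both ways. ssa-miR-142a-5p had a log2 fold change of -1.02 (SE 0.25, edgeR adjusted p = 0.229) and ssa-miR-150-5p of 0.80 (SE 0.22, edgeR adjusted p = 0.242). Groups without overlap made up 33.3% of all rows tested in water. The part of this list in the miR-210 difference was not tested. The log2 fold change of ssa-miR-210-5p in water was -0.97 (SE 0.31, edgeR adjusted p = 0.290). Over the 13 alternatives it ranged from -1.33 to -0.88 and the edgeR or DESeq2 adjusted p from 0.122 to 0.931. Control water held at most 31 counts of the miRNA.

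**Figure D3:**
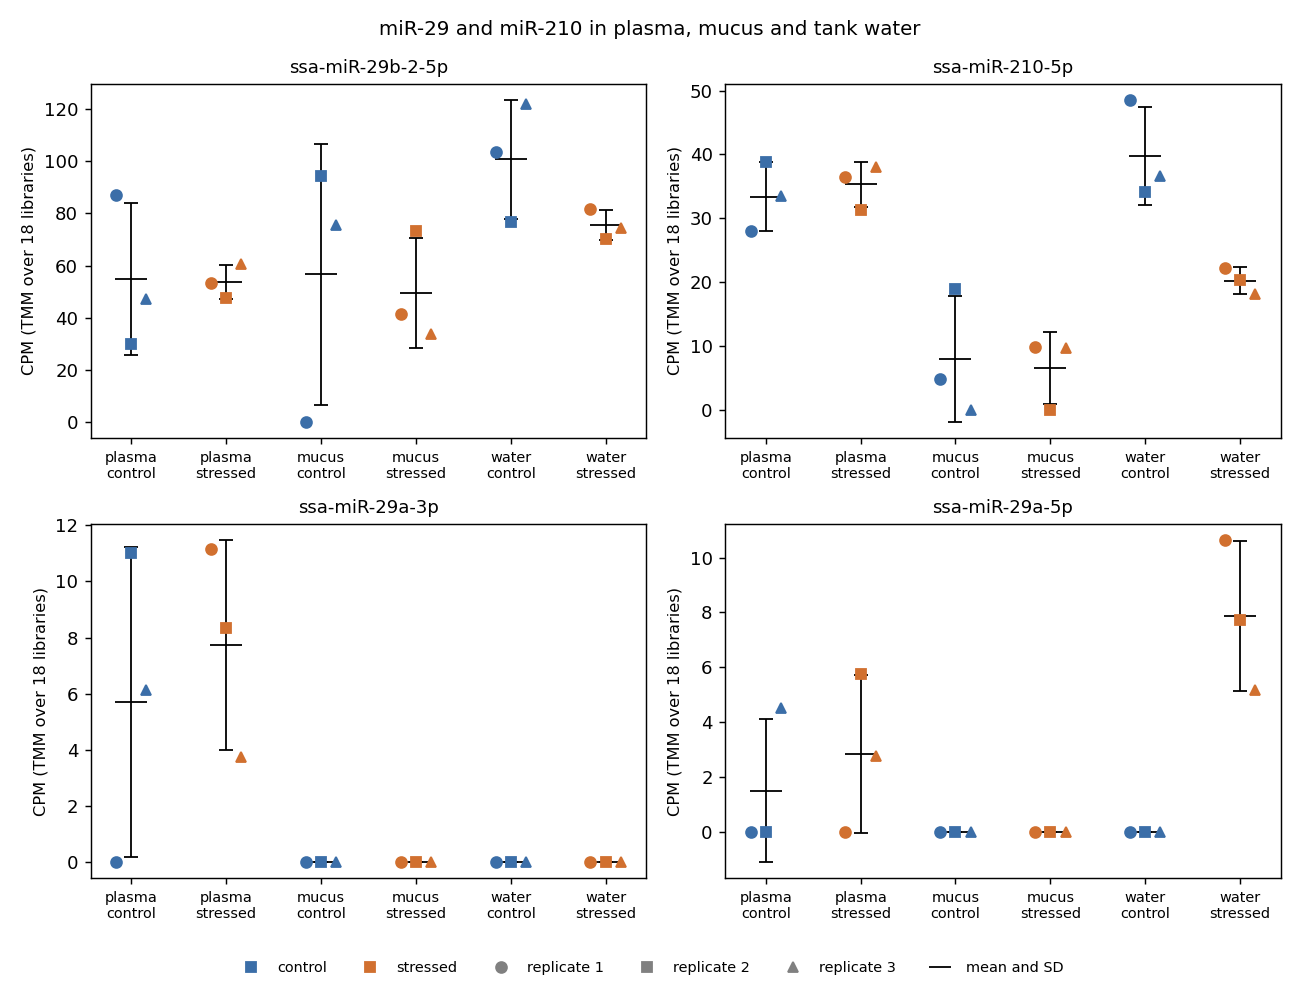
Levels of 4 members in CPM, scaled by TMM over all 18 libraries, by group; points are libraries, the marker gives the replicate number, and the bar shows the mean and SD (n = 3). ssa-miR-210-5p is lower in all 3 stressed water libraries than in the 3 control ones, ssa-miR-29a-3p is above 0 in plasma only, and ssa-miR-29a-5p is at 0 in control water and in mucus.

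As to the response to air exposure as a whole, no member passed the threshold (p of 0.05 or less, adjusted p under 0.1 and a log2 fold change beyond 2 in either direction) in any sample type. In plasma, 6 members passed the filter and 0 were called, where 0% of all 365 rows were called. In mucus, 3 members passed and 0 were called, where 0.671% of 149 rows were called. In water, 5 members passed and 0 were called, where 1.82% of 165 rows were called. An edgeR p of 0.05 or less before adjustment was met by 0 members in each of the 3 tests, and by 18, 4 and 28 rows in all. By DESeq2 the number of members called was 0 in each sample type. By edgeR's exact test it was 0 in plasma and in mucus, and by its likelihood ratio test with the block it was 1 in water.

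The members' levels separated by treatment in water only. In water, 1 member (ssa-miR-29a-5p) was higher and 1 member (ssa-miR-210-5p) was lower in every stressed than in every control library, of 5 tested. Such groups without overlap made up 33.3% of all rows tested in water, 10.1% in plasma and 14.1% in mucus, and no member had them in plasma or mucus. ssa-miR-29a-5p was at 0 in control water and passed the filter only through its stressed libraries. Its separation was thus fixed in advance and is no support for a response. With ssa-miR-29a-5p counted, the share of members in water was near that of all rows.

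**Figure D4:**
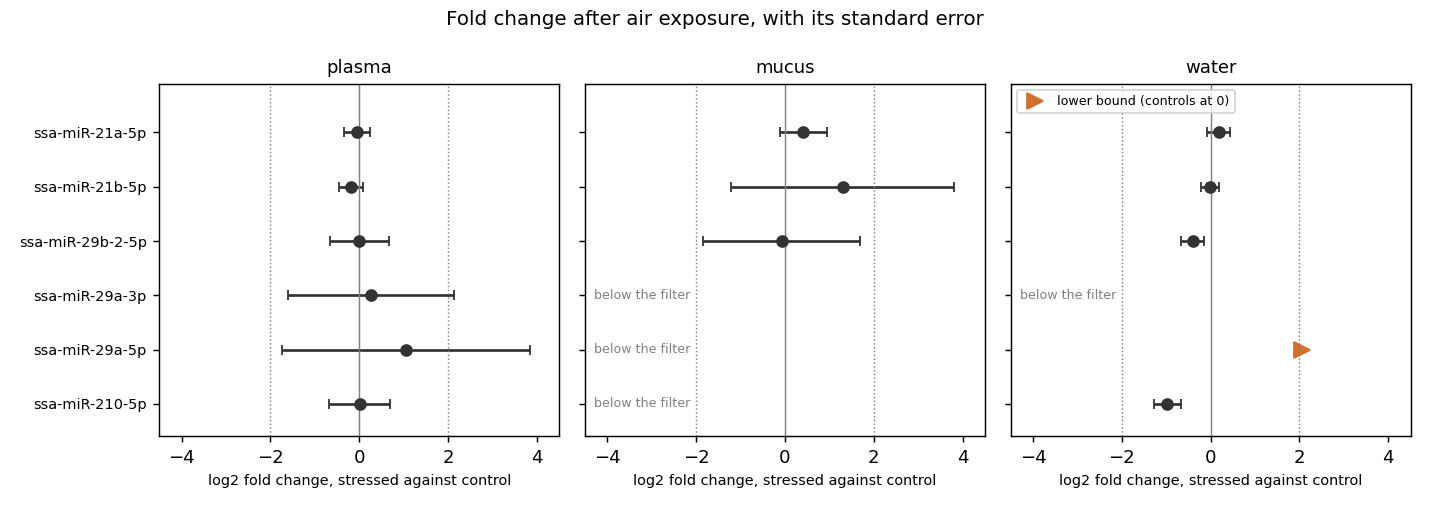
Log2 fold change of stressed against control for 6 members in plasma, mucus and water; points are edgeR estimates with their standard error, dotted lines mark 2 in either direction, and the triangle is the lower bound of ssa-miR-29a-5p in water, where all controls were at 0. The bars show a single standard error to each side. Those in plasma and mucus cross 0, and the water bars of ssa-miR-210-5p and ssa-miR-29b-2-5p lie below 0, although neither passed the test (edgeR adjusted p = 0.290 and 0.447).

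The responses of the sample types were also compared with each other in an edgeR fit of all 18 libraries. Plasma against mucus called 0 of 6 members and 1.45% of all 346 rows. Water against mucus called 0 of 6 members and 0.867% of rows, and plasma against water called 0 of 6 members and 0.289% of rows. The lowest adjusted p of a member was the 0.967 of ssa-miR-29a-5p given above. For ssa-miR-210-5p the plasma response was higher than the water response by 1.06 on the log2 scale (SE 1.82, edgeR adjusted p = 1.00).

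Levels were also compared between sample types. Scaled over all 18 libraries, ssa-miR-21a-5p was at 10156 ± 2197 CPM (SD, n = 6) in plasma, 21264 ± 4306 in mucus and 52182 ± 13111 in tank water. The libraries of each sample type lay apart on this scale, while per 1000000 known counts plasma (12882 to 26079) and mucus (20693 to 30101) overlapped. ssa-miR-21b-5p had the same order, with 15257 ± 3249 CPM in plasma, 27130 ± 14559 in mucus and 68284 ± 13955 in tank water, and here plasma and mucus overlapped. ssa-miR-29b-2-5p was at 54.3 ± 18.9 CPM in plasma, 53.1 ± 34.5 in mucus and 88.2 ± 20.3 in tank water. Libraries of the 3 types overlapped. ssa-miR-210-5p had another order, with 34.4 ± 4.22 CPM in plasma, 29.99 ± 11.9 in water and 7.20 ± 7.23 in mucus. Plasma and water overlapped for this miRNA, while every plasma library was above every mucus library. The orders of mean level were the same when known counts alone set the scale.

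Between plasma and water, ssa-miR-21a-5p was lower in plasma than in water by a log2 fold change of -2.36 (SE 0.36, edgeR adjusted p = 2.1e-04), and with the replicate block by -2.38 (edgeR adjusted p = 0.0011). The call rested on the scaling and the fold threshold: with the known total as library size the log2 fold change was -1.67, with DESeq2 size factors -1.76 and among known miRNAs only -1.88, all with an adjusted p under 0.1 but short of 2. By the DESeq2 test the adjusted p was 0.352, and by edgeR with no filter on low counts it was 1.00. It was also short of 2 without water stressed 2 (-1.98), water control 3, mucus stressed 2 or mucus control 3 (-1.84 each). With both rows summed, miR-21 was lower in plasma by -2.31 (SE 0.39, edgeR adjusted p = 6.1e-04). ssa-miR-21b-5p alone gave -2.17 (SE 1.15, edgeR adjusted p = 0.146).

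ssa-miR-29a-3p, at 6.73 ± 4.36 CPM (SD, n = 6) in plasma, was at least 35.3-fold higher than in water and at least 17.1-fold higher than in mucus, against a limit of 3 counts over the 6 libraries at 0. Both differences were called (edgeR adjusted p = 0.0394 and 0.0344). The row passed the low-count filter only through plasma, as it was at 0 in mucus and water. These calls are therefore not independent support, and with no low-count filter neither was made. The limit pools the depth of the libraries at 0. Scaled to known counts, the plasma mean was 14.1, above the limit of 3 counts in every single mucus and water library. On this scale 3 counts amount to 7.47 and 9.51 in water controls 2 and 3 and to 7.22 in mucus stressed 2. A level like that of plasma stressed 3 (7.09) was not detectable in those libraries. One like that of plasma control 3 (8.88) was not detectable in water control 3. With the replicate block, which compares samples of the same fish or tank, the adjusted p was 0.247 for water and 0.214 for mucus, and neither difference was called. In all, 2 of 6 members were called between plasma and water, where 43.9% of 346 rows were called. The call against water was lost without any of 6 of the 18 libraries (water control 1, water control 2, water stressed 1, water stressed 2, plasma control 2 and plasma stressed 2), with an adjusted p of 0.100 to 0.116.

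Plasma against mucus called 3 of 6 members, all higher in plasma, where 51.2% of rows were called. Apart from ssa-miR-29a-3p these were ssa-miR-210-5p, with a log2 fold change of 2.23 (SE 0.95, edgeR adjusted p = 0.0697), and ssa-miR-29a-5p (edgeR adjusted p = 0.0873). The latter was at least 5.52-fold higher against a limit of 3 counts pooled over the 6 mucus libraries. Scaled to known counts, its plasma mean was 3.18, with plasma controls 1 and 2 and plasma stressed 1 at 0. On this scale 3 counts amount to 1.74 and 1.88 in mucus control 2 and mucus stressed 3. In mucus controls 1 and 3 and mucus stressed 1 and 2 they amount to 3.22 to 7.22. A level like the plasma mean was not detectable in those libraries. With the replicate block 0 members were called, with an adjusted p of 0.104 for ssa-miR-210-5p and 0.314 for ssa-miR-29a-5p. The call of ssa-miR-210-5p held in 2 of the 18 fits that left out a library and that of ssa-miR-29a-5p in 4 of them, and without plasma control 3 the adjusted p of ssa-miR-29a-5p was 1.00. The call of ssa-miR-29a-3p was lost without mucus control 2, mucus stressed 1 or mucus stressed 3 (adjusted p 0.101 to 0.105). Without mucus control 2 the log2 fold change of ssa-miR-210-5p was 3.22 (edgeR adjusted p = 0.0791). Without mucus control 1 the adjusted p was 0.213, and the part of the blood miRNAs of either library in the result was not tested. ssa-miR-21a-5p was lower in plasma by -1.07 (SE 0.34, edgeR adjusted p = 0.0234), short of the fold threshold, and by -0.89 without mucus control 1 (edgeR adjusted p = 0.151) and -0.998 without mucus control 2 (edgeR adjusted p = 0.113). Over the 18 fits that left out a library its log2 fold change ranged from -1.09 to -0.27 (edgeR adjusted p 0.0473 to 0.785). The size of this difference thus depended on single libraries.

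Mucus against water called 0 of 6 members, where 14.7% of rows were called. ssa-miR-21a-5p was lower in mucus by -1.29 (SE 0.34, edgeR adjusted p = 0.0357), again short of the fold threshold, and ssa-miR-210-5p by -1.95 (SE 0.95, edgeR adjusted p = 0.204). The median log2 fold change of all 346 rows was 1.98 between plasma and mucus, 1.85 between plasma and water and 0 between mucus and water, while the medians of the 6 members were 1.13, -0.20 and -1.35. In samples of this kind, fewer cells of a type and less RNA per cell cannot be told apart.

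The arms of miR-29a differed between plasma and water as listed. In water after stress all miR-29a counts (55, 29 and 27) were listed as 5p. In plasma, the 5p row held 0 of 117 counts in stressed 1, 0 of 249 in control 2, 40.9% of 230 in stressed 2, 42.5% of 106 in control 3 and 42.4% of 66 in stressed 3. A share of 0 of 117 allows up to 3.10% and 0 of 249 up to 1.47% (upper bound of the exact 95% interval, counting error only). The mean 5p share was 25.1% ± 23.0 (SD, n = 5) in plasma and 100% in water (n = 3), and plasma minus water, at -74.9 percentage points, had an exact permutation p of 0.0357 (two-sided), the smallest that 5 against 3 libraries allow. This p is not independent evidence, because the study picked the 5p row from these stressed water libraries. Only stressed water held counts, while plasma had control and stressed libraries, and samples of 1 tank were not paired. No conclusion is drawn from this test. Mucus held no miR-29a counts. Arm names in this table need not be specific to an arm: of 24 named miRNAs with a 5p and a 3p row, 9 had identical counts in both rows in all 18 libraries, although those of miR-29a were not identical.

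The number of members found in a library differed little with treatment. Plasma libraries held 4, 7 and 7 members in controls and 5, 6 and 6 after stress, and mucus libraries held 3 each in controls and 4, 3 and 4 after stress. The exact permutation p was 1 in plasma and 0.4 in mucus, where 3 against 3 libraries cannot go below 0.1. Water libraries held 4 members in each control tank and 5 in each tank after stress, the added row being ssa-miR-29a-5p. The exact permutation p was 0.25 over pairs, the smallest that 3 pairs allow. The study picked this row from these libraries, so the shift is not independent evidence.

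Other miRNAs linked to hypoxia in mammals (miR-23, miR-24, miR-26, miR-27, miR-103, miR-107, miR-155, miR-181 and miR-199) were listed in 26 rows. After stress, 0%, 0.671% and 1.82% of all rows tested were called in plasma, mucus and water. Of this list, 0 of 21 tested were called in plasma, 1 of 16 was higher in mucus and 1 of 18 was lower in water. Named after their values were seen, these were ssa-miR-26a-5p, with 0 counts in all mucus controls and 2295, 1559 and 9404 after stress, and ssa-miR-26b-5p, with a log2 fold change of -5.69 in water (SE 0.28, edgeR adjusted p = 0.0284). Other miR-26 rows went the other way and were not called. In mucus these were ssa-miR-26d-5p at -9.57 (SE 4.75) and ssa-miR-26b-5p at -4.32 (SE 3.05). In water ssa-miR-26d-5p was at 3.56 (SE 5.48). The split of miR-26 counts between its rows is thus uncertain. The medians of the list's log2 fold changes in plasma, mucus and water were 0.41, -0.22 and 0.82, against -0.078, 0.090 and 0.39 over all rows and 0.0044, 0.42 and -0.018 over the members. Of other miRNAs linked to p53 (miR-143, miR-145, miR-192, miR-194, miR-215 and miR-449), 4 rows were tested in each sample type and 0 were called in any.

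The known miRNAs whose levels ran most alike over the 18 libraries are given as a description. For ssa-miR-21b-5p, the most abundant member, these were ssa-miR-203b-3p, ssa-miR-155-5p and ssa-let-7i-5p (Spearman's rho 0.71, 0.70 and 0.69). For ssa-miR-210-5p they were ssa-miR-142a-5p, ssa-miR-181a-5p and ssa-miR-130b-5p (0.74, 0.70 and 0.69), each of which was highest in plasma. For ssa-miR-29b-2-5p they were ssa-miR-462b-5p, ssa-miR-192a-5p and ssa-miR-30d-5p (0.60, 0.55 and 0.52). The points share libraries and 3 sample types of unlike depth.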

How the data were processed

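The deposited table holds estimated counts per miRNA: the authors trimmed reads with cutadapt 2.10, mapped the rest with Bowtie 1.1.1 to the Omyk_1.0 assembly, annotated and counted them with miRDeep2 in miARma-Seq using Atlantic salmon names, and averaged counts over precursors. All values were whole numbers, so none was changed by rounding. Rows of a family and arms of 1 hairpin may share reads, so their split is uncertain. Columns of the authors' own comparisons (fold changes and p-values) were not used. No 2 libraries of a group agreed within sampling noise.

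Counts were fitted with edgeR 4.0.16 (R 4.3.3): TMM, filterByExpr and the quasi-likelihood test, within each sample type for stress, with tank as a block for water as in the study, and over all 18 libraries for sample types and for differences of response. Adjusted p-values (Benjamini-Hochberg) cover all rows tested. The SE of a log2 fold change was derived from the test, as its absolute value divided by the square root of the F statistic. The control and stressed water of a number came from 1 tank: their deviations from the group means correlated at 0.18, 0.17 and 0.089, each best with its own number. In plasma (-0.12, -0.034 and -0.18) and mucus (-0.21, -0.14 and -0.19) control and stressed fish of a number were different animals and were not paired. Plasma and mucus of a number and treatment came from the same fish, so block values are given beside the results they change. The deviations of these pairs correlated at 0.18, 0.096 and -0.028 in controls 1 to 3 and at 0.093, -0.049 and 0.069 in stressed 1 to 3. They were best with their own number only in controls 1 and 2 and stressed 3. P-values measure the spread between libraries, of which n was 3 per group. Fits were tested on simulated counts with a fixed spread and large changes, which checks the code and not how well the fits suit these members. Exact permutation tests used SciPy 1.17.1. Alternatives were DESeq2 1.42.0, the study's edgeR tests, other scalings and filters, summed rows and leaving out each library. The members and lists were chosen with earlier results of these data known. The genes named are all members, and for the most abundant member of a family the 3 known miRNAs of other families with the highest Spearman correlation. RNA depth limits low members: 3 counts were taken as the limit of a 0.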

Additional observations from a re-analysis of the deposited data

How the results depend on the processing

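No member was called for the response to stress in plasma or mucus under any alternative, the fits with a replicate block included (0 of 6 and 0 of 3 members). In water the study's edgeR test and the fit without the replicate block called 1 member each, ssa-miR-29a-5p. Over all rows, DESeq2 called 10 rows for plasma where the edgeR quasi-likelihood test called 0, 15 for mucus where it called 1 and 28 for water where it called 3. The study's edgeR tests called 1, 2 and 15 rows, and 14 were called for water without the block. Between plasma and mucus, 3 members were called by the main fit and 0 with control libraries only, stressed libraries only, no low-count filter, DESeq2 or the replicate block. Between plasma and water, 2 were called by the main fit, 1 with control or stressed libraries only, DESeq2 size factors, known totals, known miRNAs only or the replicate block, and 0 with no low-count filter or DESeq2. Leaving out 1 library at a time gave 0 to 3 members called between plasma and mucus and 0 to 2 between plasma and water. The replicate block changed no other call. Without any of the stressed tanks ssa-miR-29a-5p did not pass the filter in water.

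None of the log2 fold changes that reversed had been called. In plasma after stress, ssa-miR-21a-5p turned from -0.043 to 0.013 (DESeq2 and its size factors), 0.12 (no filter) and 0.14 (known miRNAs only), and ssa-miR-29b-2-5p from -0.00084 to 0.042 (DESeq2 and its size factors), 0.17 (no filter), 0.17 (known miRNAs only), 0.0039 (identical rows once) and 0.080 (replicate block). In mucus, ssa-miR-21a-5p turned to -0.12 without the filter and ssa-miR-29b-2-5p to 0.82 with the replicate block. Between sample types, ssa-miR-29b-2-5p turned to -0.052 (plasma against mucus, controls only), ssa-miR-210-5p to -0.25 (plasma against water, controls only) and ssa-miR-29a-5p to -1.46 (plasma against water, stressed only). Leaving out 1 library gave ranges that crossed 0: after stress in plasma, -0.12 to 0.20 for ssa-miR-210-5p, -0.30 to 0.17 for ssa-miR-21a-5p, -0.25 to 1.47 for ssa-miR-29a-3p, -0.084 to 8.37 for ssa-miR-29a-5p and -0.37 to 0.45 for ssa-miR-29b-2-5p. In mucus they were -0.20 to 0.54 for ssa-miR-21a-5p and -0.76 to 0.32 for ssa-miR-29b-2-5p, and in water -0.20 to 0.45 for ssa-miR-21a-5p and -0.38 to 0.19 for ssa-miR-21b-5p. Between plasma and mucus they were -0.91 to 0.71 for ssa-miR-21b-5p and -0.15 to 0.66 for ssa-miR-29b-2-5p, and between plasma and water -0.73 to 2.67 for ssa-miR-29a-5p. Members detected in stressed minus control plasma ranged from -1.33 to 0.17, and the 5p share of miR-29a in plasma minus water from -79.2 to -68.6 percentage points, where no exact test of fewer libraries can pass 0.05. A minimum of 100 counts over both arms left no water library. The cause of these changes was not tested. Depth limits the low members most, with at most 66 counts of any miR-29 or miR-210 row in control water.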
